A study of Mus musculus with 12 samples.

Results

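The mitochondrial genome transcripts were the 37 genes whose GENCODE mouse symbol starts with mt-, of 54446 genes counted in every library. All 37 lie on the mitochondrial chromosome, and they comprise 13 mRNAs, 2 rRNAs and 22 tRNAs. Every one was matched to the files by its Ensembl identifier and version, and the rule uses no measured value. The annotation and all coordinates are those of mm10.

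The mitochondrial genome is a small circle that is transcribed from both strands into long precursors. Most mRNAs and both rRNAs lie on the heavy-strand transcript and are separated by tRNAs, whose excision releases the RNAs between them. *mt-Nd6* and 8 of the tRNAs are encoded on the other strand. The mRNAs encode subunits of the respiratory chain and ATP synthase, whose remaining subunits come from nuclear genes, and the rRNAs form the mitochondrial ribosome. YTHDF2 is a reader of *N*6-methyladenosine (m6A) that acts on RNA in the cytoplasm, whereas mitochondrial transcripts are made and translated inside the organelle.

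The libraries came from CD11b+ myeloid cells that had infiltrated MC38 tumors, a mouse colon carcinoma line grown in WT mice, which the methods describe as carrying the floxed *Ythdf2* allele (*Ythdf2* f/f) without deletion. Tumors were unirradiated (Ctrl) or had received a single irradiation (IR) of 20 Gy, with cells taken on day 3. Each group had 3 libraries: Ctrl Input, IR Input, Ctrl IP and IR IP, where the Input is a portion of the cell lysate and the IP is the RNA recovered with an antibody against YTHDF2. Each library number stands for cells pooled from 5 mice, and the methods call these pools technical replicates, so the p-values below measure the spread between pools. Per the methods, mice of both sexes at 8 to 10 weeks of age entered the experiments. The sample labels describe isolation of mRNA on beads ahead of the IP and an Abcam antibody, while the methods describe RNA taken directly from the lysate and an Aviva antibody. Both name a stranded total RNA kit. The effect on the rRNA values of an mRNA selection, or of any removal of rRNA during library preparation, was not tested.

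Between 27852948 and 42382532 reads per library were counted on genes, and the level of 3 counts taken as a floor was worth 0.0708 to 0.108 CPM (the usual scaling of counts to the total of the library). This floor covers counting error only. All 10 myeloid markers were detected in every library, with a summed level of 4778 to 5915 CPM in the Inputs and 1758 to 1969 CPM in the IPs. The 8 T or NK cell markers summed to 0.939 to 8.51 CPM, the 5 erythrocyte markers to 0.121 to 1.68 CPM and the 6 tumor epithelium markers to 1.23 to 6.96 CPM. The 4 B cell markers summed to 18.6 to 49.3 CPM and the 6 fibroblast or endothelium markers to 29.6 to 53.5 CPM. Reads on no gene made up 24.6% to 27.0% of the uniquely aligned reads in the Inputs, 41.8% to 42.7% in Ctrl IP and 49.4% to 54.1% in IR IP. In such bulk samples fewer cells of a type and less RNA per cell cannot be told apart.

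The order of genes on the chromosome shows how closely the classes are packed. The first stretch below runs from the end of *mt-Rnr1*, the small-subunit 12S rRNA, through the valine tRNA *mt-Tv* into *mt-Rnr2*, the large-subunit 16S rRNA. The second runs from *mt-Rnr2* through the leucine tRNA *mt-Tl1* into *mt-Nd1*. Both are plus strand of mm10, written 5′ to 3′ with the tRNA in capitals, and no base lies between the neighbours. They are shown because counts on their outer genes and on their tRNAs differ by orders of magnitude, as described with the tRNAs.
mt-Rnr1, mt-Tv and mt-Rnr2, chrM:995-1123: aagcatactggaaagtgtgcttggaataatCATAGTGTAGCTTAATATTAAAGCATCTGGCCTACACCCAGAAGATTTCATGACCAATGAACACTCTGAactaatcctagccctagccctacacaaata
mt-Rnr2, mt-Tl1 and mt-Nd1, chrM:2646-2780: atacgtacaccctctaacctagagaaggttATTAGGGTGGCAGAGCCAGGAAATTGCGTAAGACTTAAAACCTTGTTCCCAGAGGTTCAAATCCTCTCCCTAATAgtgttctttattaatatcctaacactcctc

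The rRNAs, mRNAs and tRNAs behaved differently across the 4 groups. As a share of all counts on genes, the 2 rRNAs took 2.76%, 2.94% and 2.95% in Ctrl Input and 0.760%, 0.789% and 0.780% in IR Input. In the IP the order of the conditions was the opposite, with 0.0362% to 0.0406% in Ctrl and 0.191% to 0.201% in IR. The 13 mRNAs together took 0.805% to 0.827% in Ctrl Input, 0.908% to 0.929% in IR Input, 0.427% to 0.438% in Ctrl IP and 0.418% to 0.485% in IR IP. The 22 tRNAs together took at most 0.000822% in any library.

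Within a library, the ratio of rRNA to mRNA counts does not depend on scaling between libraries. It was 3.43 to 3.58 in Ctrl Input and 0.835 to 0.859 in IR Input, and 0.0848 to 0.0938 in Ctrl IP against 0.408 to 0.469 in IR IP. No group overlapped another. The difference in log2 ratio of IP over Input between IR and Ctrl was 4.33 (SE 0.086). In an exact two-sided permutation test with n = 3 per group every one of these differences gave p = 0.1, the smallest value that 3 against 3 allows, and a Benjamini-Hochberg adjusted p of 0.117 over the 35 tests of shares and ratios.

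**Figure D1:**
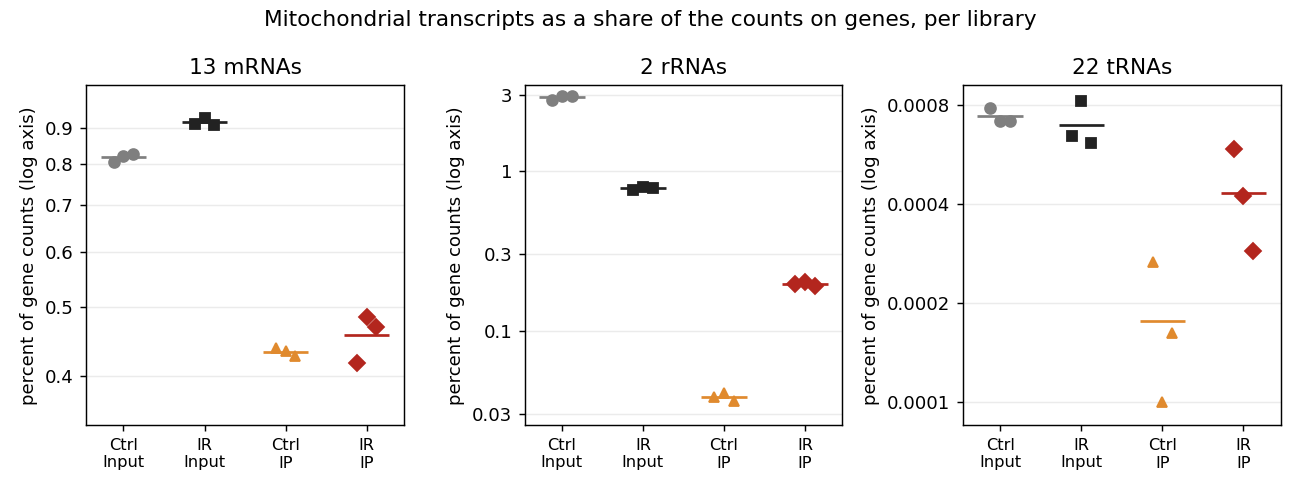
Percent of all gene counts (log axis) on the 13 mRNAs, the 2 rRNAs and the 22 tRNAs, with 1 point per library and a line at the mean of each group of 3. The rRNAs lie at 2.76% to 2.95% in Ctrl Input and 0.760% to 0.789% in IR Input, but at 0.0362% to 0.0406% in Ctrl IP and 0.191% to 0.201% in IR IP.

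To ask which transcripts YTHDF2 IP recovered relative to their abundance, IP was compared with Input within each condition. A gene was called at an adjusted p under 0.05, from the quasi-likelihood test of edgeR and adjusted after Benjamini and Hochberg over every gene tested. Levels are CPM on the TMM scale and differences are log2 fold changes with their standard errors (SE).

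The 12S rRNA *mt-Rnr1* (chrM:70-1024) was at 7612, 8158 and 8249.6 CPM in Ctrl Input and at 181, 188 and 163 CPM in Ctrl IP. IR libraries held it at 1842, 1909.8 and 1879 CPM in the Inputs and at 545, 554 and 502 CPM in the IPs. The groups did not overlap in either condition. *mt-Rnr1* was thus 42.9-fold lower in the IP in Ctrl (log2 fold change -5.42, SE 0.052, edgeR adjusted p = 1.22e-20) and by less in IR (-1.76, SE 0.043, edgeR adjusted p = 8.11e-11). The 16S rRNA *mt-Rnr2* (chrM:1094-2675) was at 19548, 20590.2 and 20764 CPM in Ctrl Input and at 222, 242 and 227 CPM in Ctrl IP. For IR its levels were 6171, 6357 and 6299.8 CPM in the Inputs and 1222, 1280.4 and 1277 CPM in the IPs. It fell 83.6-fold from Input to IP in Ctrl (log2 fold change -6.39, SE 0.040) and 4.80-fold in IR (-2.26, SE 0.028). In Ctrl 0.0574% of the tested genes had a lower log2 fold change than *mt-Rnr2*.

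The change of binding, that is the log2 ratio of IP over Input in IR minus that in Ctrl, was tested directly over all 12 libraries. The term names this difference only. None of the 12 libraries is an IP with a control antibody, so binding to YTHDF2 and background recovery cannot be told apart. The change of binding was 3.68 for *mt-Rnr1* (SE 0.065, edgeR adjusted p = 1.35e-18) and 4.14 for *mt-Rnr2* (SE 0.044, edgeR adjusted p = 2.63e-22). Over all genes 6.28% were called higher in this comparison, and 98.0% of all tested genes lay below *mt-Rnr2*. Per pool, the log2 ratio for *mt-Rnr2* was -6.46, -6.41 and -6.51 in Ctrl and -2.34, -2.31 and -2.30 in IR. Both sides of the ratio contributed: in the Input *mt-Rnr1* fell with IR 4.504-fold and *mt-Rnr2* 3.42-fold, whereas in the IP they rose 3.03-fold and 5.50-fold. Every one of these calls was kept under every alternative tried for it.

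The 2 rRNAs also changed in their proportion to each other. The ratio of *mt-Rnr2* to *mt-Rnr1* counts, a measure chosen after seeing the data and given with no test, was 2.52 to 2.57 in Ctrl Input and 3.33 to 3.35 in IR Input. In the IPs it was 1.23 to 1.40 in Ctrl and 2.24 to 2.55 in IR.

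The sum of annotations that hold nuclear ribosomal RNA differed between IR and Ctrl in the same directions as the mitochondrial rRNAs. Within IR its share was higher in the IP than in the Input, with overlapping CPM, whereas the mitochondrial rRNAs were lower in the IP. Summed over 5 such annotations, listed after the data were seen, of which 1 (*AY036118*) had no count in any library, they took 4.30% ± 0.12 (SD, n = 3) in Ctrl Input and 0.756% ± 0.028 in IR Input. In the IPs they took 0.506% ± 0.040 in Ctrl and 0.902% ± 0.068 in IR. *Gm23935* accounted for most of this, with 3.86% in Ctrl Input and 0.562% in IR Input. In the IP *Gm23935* and *Gm26917* were higher in IR without overlap. The other annotations with counts overlapped between the conditions there. *Gm42418* was at 613 to 749 CPM in Ctrl IP and 649 to 789 CPM in IR IP, and *Lars2* at 22.4 to 23.8 and 18.4 to 24.8 CPM. The part of nuclear rRNA, or of what set its amount, in the values of *mt-Rnr1* and *mt-Rnr2* was not tested.

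Among the mRNAs, IP against Input ranged from a log2 fold change near 0 to a more than 10-fold lower level. In Ctrl 11 of 13 mRNAs were called lower in the IP, 1 higher and 1 neither, against 34.6% of all tested genes lower and 34.1% higher, 68.7% in all. In IR 12 of 13 were lower and *mt-Nd4l* was not called, against 30.5% of all genes lower and 32.1% higher, 62.6% in all. The median log2 fold change of the 13 mRNAs was -2.03 in Ctrl and -1.52 in IR, beside 0.02 and 0.10 for all tested genes. *mt-Atp8* reached the required counts only in the Inputs, and so did *mt-Nd3* in Ctrl, with 6 to 11 counts in Ctrl IP. These calls were bound to be lower and add no support to the tally. With at least 10 counts in every library 9 mRNAs were called lower in Ctrl and 10 in IR.

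**Figure D2:**
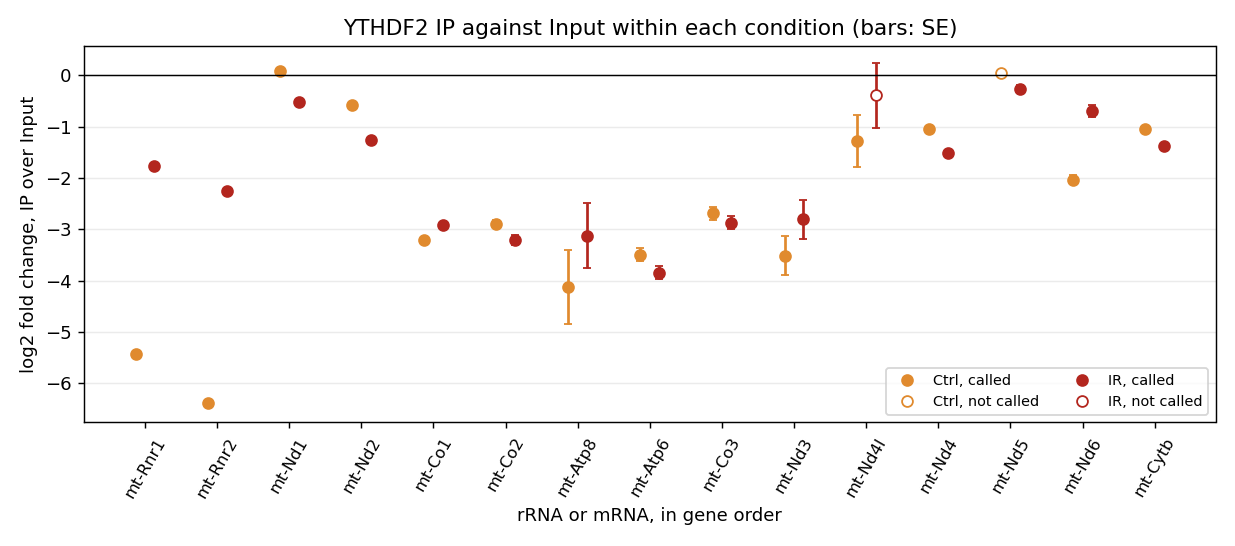
Log2 fold change of IP over Input (vertical axis) for the 2 rRNAs and 13 mRNAs in gene order, in Ctrl and in IR, with SE as bars, filled points called at an adjusted p under 0.05 and open points not called. The rRNAs move up from -5.42 and -6.39 in Ctrl to -1.76 and -2.26 in IR, while *mt-Nd1* and *mt-Nd5* lie near 0 in Ctrl and the complex IV and V mRNAs below -2.5 in both conditions.

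The 7 mRNAs of complex I, which takes electrons from NADH, spanned most of this range. *mt-Nd1* was at 1964, 1957 and 2026 CPM in Ctrl Input and at 1953, 1975 and 2026 CPM in Ctrl IP. The values in IR were 2563, 2532 and 2522 CPM in the Inputs and 1533, 1757 and 1819 CPM in the IPs. The groups overlapped in Ctrl and did not in IR.

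Its fold change in Ctrl was called higher by edgeR (log2 fold change 0.08, SE 0.030, adjusted p = 0.0304), but the call was lost without replicate 2 (0.08) or 3 (0.10), with the pool as a replicate block (adjusted p = 0.0728) and with all 12 libraries in 1 fit. It turned to -0.11 with library size only and to -0.04 with no filter. In IR *mt-Nd1* was called lower (-0.52, SE 0.052, edgeR adjusted p = 6.03e-06). *mt-Nd5* likewise was at 725, 747 and 739 CPM in Ctrl Input and 725, 721 and 706 CPM in Ctrl IP, which overlapped (0.04, SE 0.034, edgeR adjusted p = 0.338). With library size only *mt-Nd5* was called lower in Ctrl (-0.15). In IR it was lower in the IP by 0.26 on the log2 scale (log2 fold change -0.26, SE 0.068), which was not called without replicate 1 (-0.11) or 3 (-0.20), with library size only (-0.12) or with at least 10 counts in every library (-0.14).

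*mt-Nd2* and *mt-Nd4* lay between these and the remaining mRNAs. *mt-Nd2* was at 656, 658 and 662 CPM in Ctrl Input and 417, 418 and 417 CPM in Ctrl IP (log2 fold change -0.58, SE 0.034). The IR libraries were at 860.1, 855 and 845 CPM in the Inputs and 303, 368 and 359 CPM in the IPs (-1.26, SE 0.064). *mt-Nd4* had a log2 fold change of -1.04 (SE 0.033) in Ctrl and -1.52 (SE 0.057) in IR. The short *mt-Nd3* was at 3.54, 3.64 and 3.78 CPM in Ctrl Input and 0.352, 0.187 and 0.372 CPM in Ctrl IP, with log2 fold changes of -3.51 (SE 0.379) in Ctrl and -2.80 (SE 0.377) in IR. In Ctrl it met the required counts through the Inputs, with 6 to 11 counts in Ctrl IP. *mt-Nd4l* had only 12 to 53 counts in any Ctrl library, and its call in Ctrl (-1.28, SE 0.505, edgeR adjusted p = 0.0327) was lost under 5 of 11 alternatives, among them each replicate left out (-1.37 without replicate 1, -1.26 without 2 and -1.17 without 3). In IR it was the mRNA not called (-0.39, SE 0.632).

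*mt-Cytb*, the mitochondrial subunit of complex III, was at 1501, 1591 and 1587 CPM in Ctrl Input and 717, 725 and 710.2 CPM in Ctrl IP. In IR the Inputs were at 1948, 2044 and 2024 CPM and the IPs at 665, 826 and 743 CPM. The groups were apart in both conditions (log2 fold change -1.04, SE 0.034, in Ctrl and -1.38, SE 0.064, in IR).

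The mRNAs of complex IV, cytochrome c oxidase, were low in the IP. *mt-Co1*, its catalytic core subunit, was at 1650.0, 1655 and 1670.3 CPM in Ctrl Input and 182, 171 and 157 CPM in Ctrl IP. In IR it was at 1548, 1594 and 1500.4 CPM in the Inputs and 206, 199 and 189.6 CPM in the IPs. *mt-Co1* was therefore 9.25-fold lower in the IP in Ctrl and 7.53-fold lower in IR (log2 fold changes -3.21, SE 0.048, and -2.91, SE 0.045).

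*mt-Co2* had log2 fold changes of -2.90 (SE 0.078) in Ctrl and -3.22 (SE 0.098) in IR, and *mt-Co3* -2.69 (SE 0.126) and -2.87 (SE 0.132). Complex V, the ATP synthase, gave similar values for *mt-Atp6*, at -3.50 (SE 0.126) and -3.85 (SE 0.128). *mt-Atp8* had 49 to 70 counts in the Inputs and 0 to 5 in the IPs, with log2 fold changes of -4.13 (SE 0.725) and -3.13 (SE 0.630). Its 204 bases end in 43 that also begin *mt-Atp6*, and a read within the shared bases belongs to neither gene alone. The whole of *mt-Atp8* on the plus strand is printed with the shared bases in capitals, because its count rests on the rest.
mt-Atp8, chrM:7766-7969: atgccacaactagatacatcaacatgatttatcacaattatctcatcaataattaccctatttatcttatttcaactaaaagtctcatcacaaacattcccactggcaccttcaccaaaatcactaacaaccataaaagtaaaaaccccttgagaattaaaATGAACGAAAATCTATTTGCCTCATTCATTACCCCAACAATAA

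The contrast between *mt-Nd1* and *mt-Co1* holds within libraries. The ratio of *mt-Co1* to *mt-Nd1* counts, chosen after seeing the data and given with no test, was 0.825 to 0.846 in Ctrl Input and 0.0775 to 0.0935 in Ctrl IP. In IR it was 0.595 to 0.630 in the Inputs and 0.104 to 0.134 in the IPs. Accordingly the makeup of the mRNA pool differed between fractions: *mt-Nd1* made up 24.7% ± 0.29 (SD, n = 3) of all mitochondrial mRNA counts in Ctrl Input and 43.3% ± 0.71 in Ctrl IP, and *mt-Co1* 20.7% ± 0.14 and 3.71% ± 0.29.

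Levels of different genes were compared only as CPM per kb of gene length. In Ctrl Input the order was *mt-Rnr2* (12832 ± 416 CPM per kb, SD, n = 3), *mt-Rnr1* (8384 ± 361), *mt-Nd1* (2071 ± 39.6), *mt-Cytb* (1363 ± 44.5), *mt-Co1* (1073 ± 6.86), *mt-Nd4* (854 ± 6.33), *mt-Nd2* (635 ± 3.15) and *mt-Nd5* (404 ± 6.11), and no library of one of these overlapped its neighbour in the order. *mt-Co2*, *mt-Atp6* and *mt-Nd6* followed at 110 to 124 CPM per kb, each overlapping the next, and the remaining 4 mRNAs lay between 4.13 and 34.1 CPM per kb. In IR Input *mt-Nd1* (2653 ± 22.4 CPM per kb) lay above *mt-Rnr1* (1965 ± 35.4), and *mt-Nd4* above *mt-Co1*.

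In Ctrl IP *mt-Nd1* led at 2074 ± 39.1 CPM per kb, followed by *mt-Cytb* (627 ± 6.53) and then *mt-Nd2*, *mt-Nd4* and *mt-Nd5* at 393 to 402, of which *mt-Nd4* and *mt-Nd5* overlapped. Both rRNAs came after these, with *mt-Rnr1* at 185 ± 13.6 and *mt-Rnr2* at 146 ± 6.48 CPM per kb. In IR IP *mt-Rnr2* was second, at 796 ± 20.7 CPM per kb, between *mt-Nd1* (1779 ± 157) and *mt-Cytb* (651 ± 70.3).

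**Figure D3:**
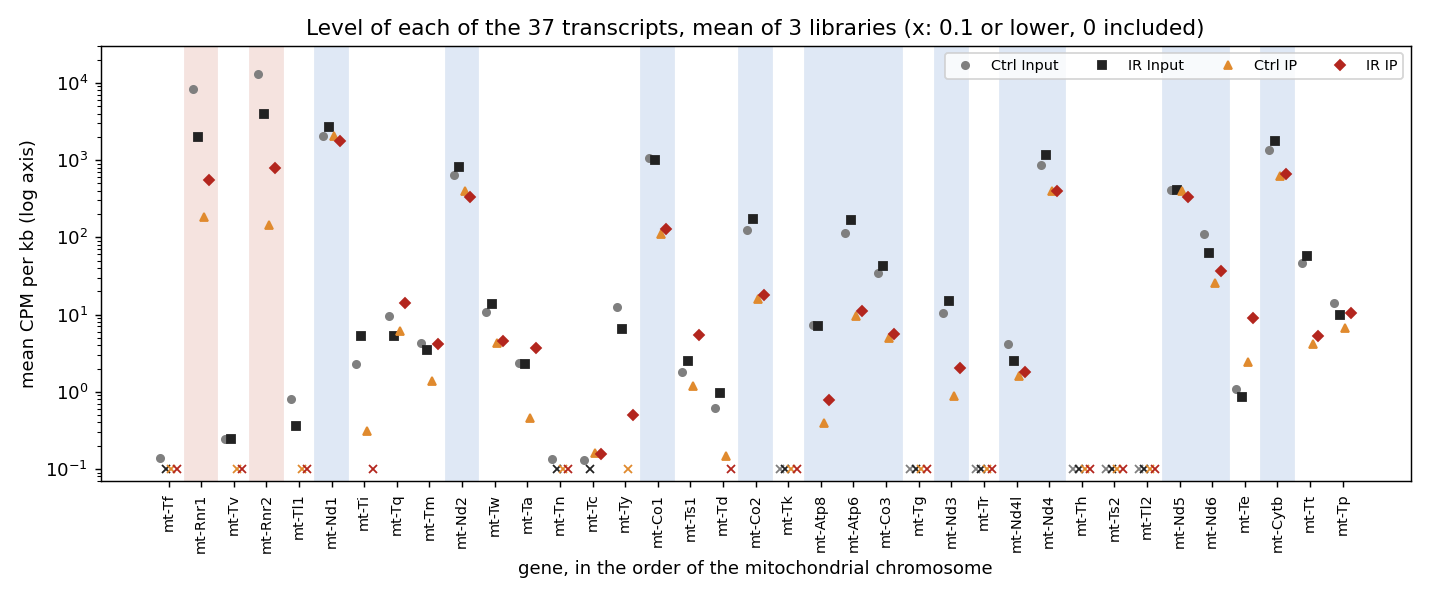
Mean level of 3 libraries in CPM per kb (log axis) for the 37 transcripts in the order of the chromosome, with crosses for means of 0.1 or lower, rRNAs on a red and mRNAs on a blue background. Levels drop from the rRNAs and the abundant mRNAs to the adjacent tRNAs, and the rRNAs lie highest in Ctrl Input (12832 and 8384 CPM per kb) and lowest in Ctrl IP (146 and 185).

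Reads from several mRNAs could be shared with nuclear copies of mitochondrial DNA. Of the bases of *mt-Co2*, 100% lay in 50-base stretches that also occur in annotated nuclear transcripts. For *mt-Atp6*, *mt-Co3*, *mt-Nd3* and *mt-Nd4l* this share of bases was 98.3% to 99.9%, for *mt-Co1* 74.9% and for *mt-Nd4* 63.6%. It was 24.3% for *mt-Nd5*, 17.2% for *mt-Nd2* and 4.11% for *mt-Rnr2*, and no stretch of *mt-Nd1*, *mt-Cytb*, *mt-Nd6*, *mt-Atp8*, *mt-Rnr1* or any tRNA occurred there.

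The levels of the mRNAs with copies are therefore uncertain, since reads that align equally well to both places are assigned to neither. The 14 nuclear genes in the files that hold such copies had a summed level of 146 to 155 CPM in Ctrl Input and 19.2 to 21.97 CPM in Ctrl IP. Among the 4 mRNAs with no copy, the log2 fold change in the IP against Input in Ctrl ranged from -4.13 to 0.08, and among the 7 with over 60% from -3.51 to -1.04. The median was -2.90 for the 7 with over 60% and -0.81 for the 6 with under 30%. The lowest value without a copy, -4.13, was that of *mt-Atp8*, with 0 to 4 counts in Ctrl IP. The part of the copies in the recovery was not tested.

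The sequence GGACT, a common form of the m6A motif, was searched on the RNA strand of each rRNA and mRNA. *mt-Rnr1* held it 3 times (3.14 per kb) and *mt-Rnr2* 1 time (0.632 per kb). Among the mRNAs it occurred 8 times, in 5 of 13 (*mt-Co3* 3 times, *mt-Nd2* 2 times, and once each in *mt-Co2*, *mt-Nd4* and *mt-Nd4l*). Over the summed length of the 13 mRNAs this is 0.702 per kb. In 58784 nuclear protein-coding transcripts, of which 78.7% hold it, the median density per transcript was 1.02 per kb. These measures are unlike, and transcript length was not matched. The windows of the long mRNAs with a match are given 5′ to 3′ on the plus strand of mm10, with the motif in capitals, because these mRNAs differ in recovery.
mt-Nd2, chrM:4280-4309: ccactgcacataGGACTtattcttcttaca
mt-Nd2, chrM:4406-4435: ggggcatgaggaGGACTtaaccaaacacaa
mt-Nd4, chrM:11193-11222: atcatggcccgaGGACTtcaaatggtcttc
mt-Co3, chrM:8826-8855: attgtacaaaaaGGACTacgatatggtata
mt-Co3, chrM:9102-9131: accattatactaGGACTttacttcaccatc
mt-Co3, chrM:9207-9236: actggattccatGGACTccatgtaattatt

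The mRNAs with the motif had log2 fold changes from -2.90 to -0.58 for IP over Input in Ctrl, and the 8 without it from -4.13 to 0.08. *mt-Nd1* and *mt-Nd5*, the least reduced, were without it, and *mt-Co3*, with the most matches, was at -2.69. A match says only that these letters are present, and m6A itself was not measured in these libraries.

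The change of binding with IR went both ways among the mRNAs. Of 13 mRNAs 2 were called higher and 5 lower, beside 6.28% and 13.9% of all tested genes (20.2% in all), and 6 were not called. Lower were *mt-Nd2* (log2 difference -0.66, SE 0.073), *mt-Nd1* (-0.58, SE 0.061), *mt-Nd4* (-0.45, SE 0.066), *mt-Cytb* (-0.31, SE 0.073) and *mt-Nd5* (-0.28, SE 0.078), all with edgeR adjusted p of at most 0.0147. Higher were *mt-Nd6* (1.36, SE 0.146) and *mt-Co1* (0.32, SE 0.064).

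With library size only in place of TMM, which moved the median of all genes up by 0.31 in this comparison, *mt-Nd1* (-0.27) and *mt-Nd2* (-0.35) stayed called lower and *mt-Nd4* (-0.15), *mt-Cytb* (-0.000857) and *mt-Nd5* (0.03) were not called, *mt-Nd5* having turned its sign. The 2 higher calls were kept. *mt-Nd5* also lost its call without replicate 1 (-0.15) or 3 (-0.28), with DESeq2 size factors (-0.22) and with at least 10 counts in every library (-0.17), and *mt-Cytb* without replicate 3 (-0.29). The 6 mRNAs not called ranged from -0.33 to 1.02, with SE of 0.122 to 0.987.

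*mt-Nd6* is the one mRNA of the light strand, and its 3′ end overlaps that of *mt-Nd5* by 14 bases. Both ends are printed 5′ to 3′ on their own strand with the overlap in capitals, as they show that reads there could be told apart only by strand.
mt-Nd5, plus strand, chrM:13536-13565: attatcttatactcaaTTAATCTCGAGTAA
mt-Nd6, minus strand, chrM:13552-13581: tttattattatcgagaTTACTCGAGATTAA

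*mt-Nd6* was at 58.9, 52.9 and 59.1 CPM in Ctrl Input and 34.8, 32.5 and 29.6 CPM in IR Input. In the IPs the order was the opposite, with 13.2, 14.0 and 12.3 CPM in Ctrl and 18.5, 21.1 and 18.0 CPM in IR. The groups did not overlap in either fraction. IP over Input was -2.03 (SE 0.089) on the log2 scale in Ctrl and -0.70 (SE 0.119) in IR. Like the rRNAs, *mt-Nd6* was thus lower with IR in the Input (log2 fold change -0.90, SE 0.062, edgeR adjusted p = 3.56e-12) and higher in the IP (0.55, SE 0.163, edgeR adjusted p = 0.0297). The IP call was lost without replicate 1 (0.60), 2 (0.55) or 3 (0.56).

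The ratio of *mt-Nd6* to *mt-Nd5* counts was 0.0709 to 0.0812 in Ctrl Input, 0.0393 to 0.0470 in IR Input, 0.0174 to 0.0195 in Ctrl IP and 0.0290 to 0.0350 in IR IP. No group overlapped another, and the differences gave the smallest p that 3 against 3 allows in the exact permutation test (p = 0.1). The strand option of the counting was not given in the sources used here. Without strand, reads of *mt-Nd6* and of the heavy-strand transcript that runs antisense to it cannot be told apart.

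To ask how abundance and recovered RNA differed with IR, IR was compared with Ctrl within the Input and within the IP. In the Input 8 of 13 mRNAs were called higher and 2 lower, beside 21.0% and 23.9% of all tested genes (45.0% in all), and the rRNAs were both lower. Higher were *mt-Atp6* (log2 fold change 0.50, SE 0.058), *mt-Nd3* (0.43), *mt-Co2* (0.40), *mt-Nd4* (0.38), *mt-Nd2* (0.30), *mt-Cytb* (0.28), *mt-Nd1* (0.28) and *mt-Co3* (0.23). Lower were *mt-Nd6* (-0.90) and *mt-Co1* (-0.18, SE 0.026, edgeR adjusted p = 2.84e-06). *mt-Nd4l* (-0.82), *mt-Atp8* (-0.13) and *mt-Nd5* (-0.05) were not called. The call of *mt-Nd3* was lost without replicate 2 (0.30) or 3 (0.48), with no filter (0.43, edgeR adjusted p = 0.0503) and in 1 fit of all 12 libraries (0.48, edgeR adjusted p = 0.325). That of *mt-Co3* was lost without replicate 1 (0.18) and in 1 fit of all 12 libraries (0.28, edgeR adjusted p = 0.0708). *mt-Nd5* was called lower with library size only (-0.07) and *mt-Nd4l* with at least 10 counts in every library (-0.82).

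These changes were smaller than those of the rRNAs. *mt-Nd4*, for instance, was at 1174, 1171 and 1187 CPM in Ctrl Input and at 1621, 1624 and 1599.8 CPM in IR Input, without overlap, whereas *mt-Rnr1* fell from at least 7612 to at most 1909.8 CPM.

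In the IP 12 mRNAs could be tested, *mt-Atp8* having too few counts. Of these 2 were called higher with IR (*mt-Nd6*, and *mt-Co1* at 0.23, SE 0.069) and 3 lower (*mt-Nd2* at -0.27, *mt-Nd5* at -0.24 and *mt-Nd1* at -0.21), beside 6.12% and 9.85% of all genes. Both rRNAs were higher. With library size only, which moved the median of all genes by 0.20, none of the 3 was called lower (-0.07, -0.04 and -0.01) and *mt-Nd4* (0.21) and *mt-Cytb* (0.26) were called higher.

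The small calls in the IP were also lost with fewer libraries, at similar or smaller values. *mt-Nd1* was not called without replicate 2 (-0.21), *mt-Nd2* without replicate 1 (-0.17), *mt-Nd5* without replicate 1 (-0.12) or 3 (-0.25), and *mt-Co1* without replicate 2 (0.25) or 3 (0.22) or with no filter (0.20). In 1 fit of all 12 libraries *mt-Nd3* was called higher (1.24). The IR IP of pool 1 had the lowest *mt-Nd1* (1533 CPM), *mt-Nd2* (303 CPM), *mt-Nd4* (488 CPM), *mt-Nd5* (529 CPM) and *mt-Cytb* (665 CPM) of its group, and the largest share of reads on no gene, 54.1%.

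**Figure D4:**
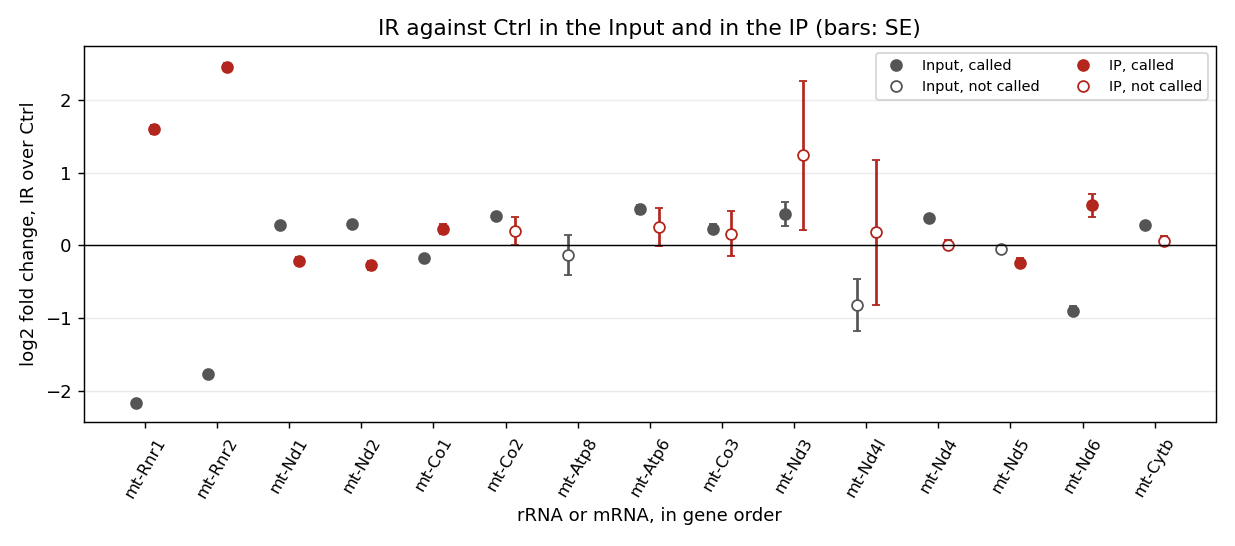
Log2 fold change of IR over Ctrl (vertical axis) for the 2 rRNAs and 13 mRNAs in gene order, in the Input and in the IP, with SE as bars, filled points called and open points not called at an adjusted p under 0.05. *mt-Rnr1*, *mt-Rnr2* and *mt-Nd6* lie below 0 in the Input (-2.17, -1.77 and -0.90) and above 0 in the IP (1.60, 2.46 and 0.55), and *mt-Co1* does so with smaller values (-0.18 and 0.23).

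The tRNAs gave few counts. Of 22 tRNAs, 6 (*mt-Tk*, *mt-Tg*, *mt-Tr*, *mt-Th*, *mt-Ts2* and *mt-Tl2*) had 0 counts in all 12 libraries, and a further 6 never exceeded 5 counts. *mt-Tv*, between the rRNAs in the first sequence above, had at most 2 counts in a library, while its neighbours had 69151 to 335915 (*mt-Rnr1*) and 230186 to 845477 (*mt-Rnr2*) in the Inputs. *mt-Tl1*, in the second, had at most 3 counts beside *mt-Nd1* with 68760 to 101892. A read that spans a tRNA and its neighbour belongs to no single gene, and 0.971% to 2.22% of the uniquely aligned reads of a library fell on several genes. Their part in the low tRNA counts was not tested.

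The 4 tRNAs with the most counts were those for threonine (*mt-Tt*), proline (*mt-Tp*), glutamine (*mt-Tq*) and tryptophan (*mt-Tw*), with means of 70.8, 24.3, 21.2 and 20.3 counts over the 12 libraries. *mt-Tt* and *mt-Tp* are neighbours on opposite strands, and *mt-Ty*, the tyrosine tRNA, was added after its values were seen. These 3 are printed 5′ to 3′ on their own strand, in lower case throughout, because their recovery differed.
mt-Tt, plus strand, chrM:15289-15355: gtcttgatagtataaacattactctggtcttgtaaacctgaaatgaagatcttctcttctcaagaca
mt-Tp, minus strand, chrM:15356-15422: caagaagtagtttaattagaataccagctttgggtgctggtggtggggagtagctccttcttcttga
mt-Ty, minus strand, chrM:5260-5326: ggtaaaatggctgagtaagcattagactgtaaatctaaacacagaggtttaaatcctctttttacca

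*mt-Tt* had 113, 111 and 129 counts in Ctrl Input and 13, 5 and 7 in Ctrl IP. In IR it had 124, 174 and 139 counts in the Inputs and 20, 15 and 0 in the IPs. The groups did not overlap in either condition. *mt-Tt* met the required counts through the Inputs alone, so no test is given for it. IP over Input had a log2 fold change of -3.38 (SE 0.424) in Ctrl and -3.34 (SE 0.792) in IR. Without replicate 2 it was -3.27 in IR.

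*mt-Ty* had 32, 30 and 34 counts in Ctrl Input and 0 in each Ctrl IP. Against a floor of 3 counts per library it was at least 6.89-fold lower in the IP. In IR it had 18, 21 and 10 counts in the Inputs and 0, 0 and 3 in the IPs. *mt-Ty* reached 10 counts only in the Inputs, so no test is given for it here.

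*mt-Tp* had 33, 48 and 27 counts in Ctrl Input and 20, 4 and 16 in Ctrl IP, and 21, 29 and 26 against 36, 20 and 12 in IR. These differences were not called (log2 fold change -0.99, SE 0.620, in Ctrl and 0.15, SE 0.662, in IR), and the groups overlapped in IR. *mt-Tw* was not called either, at -1.26 (SE 0.719) and -1.53 (SE 0.716).

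*mt-Tq* and *mt-Te*, the glutamate tRNA, took the other direction in IR. *mt-Tq* had 16, 15 and 12 counts in IR Input and 29, 38 and 29 in IR IP, without overlap (log2 fold change 1.47, SE 0.625, edgeR adjusted p = 0.0611), and it was called higher by DESeq2 (1.53, adjusted p = 0.0327), and by edgeR with library size only (1.61, adjusted p = 0.0430) and with at least 10 counts in every library (1.59, adjusted p = 0.00632). *mt-Te*, chosen after its values were seen, had 2, 0 and 5 counts in IR Input and 21, 20 and 18 in IR IP. It reached the required counts only through IR IP, so no test is given for it. In the Ctrl libraries *mt-Te* had 0 to 5 counts in the Inputs and 0 to 11 in the IPs.

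Only 5 tRNAs in Ctrl and 8 in IR could be tested for IP against Input, several of them through the counts of 1 fraction alone, so that no tally of their calls is given. With at least 10 counts required in every library no tRNA could be tested in Ctrl, and in IR *mt-Tq* and *mt-Tp* could, of which *mt-Tq* was called higher. The change of binding could be tested for 8 tRNAs. None was called by edgeR or DESeq2, and 1 had an unadjusted edgeR p under 0.05 (*mt-Tq*, 2.098, SE 0.968). Between IR and Ctrl likewise 0 of 6 tRNAs were called in the Input, 1 with an unadjusted p under 0.05 (*mt-Ty*, -1.05, SE 0.447), and 0 of 4 in the IP, 0 at that level, with DESeq2 calling 0 in both. With at least 10 counts in every library 2 tRNAs were called lower in the Input, and without replicate 2 there was 1. The SE of the change of binding was 0.832 to 2.103 for the 8 tRNAs, so that small differences were not detectable at this depth.

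The summed tRNA counts of the 2 strands stood in different proportion in IP and Input. The 8 tRNAs of the light strand summed to 96 to 119 counts in Ctrl Input and 67 to 76 in IR Input, and the 14 of the heavy strand to 153 to 191 and 193 to 236. In the IPs the light-strand tRNAs had 19 to 52 counts in Ctrl and 73 to 109 in IR, and the heavy-strand tRNAs 13 to 35 and 7 to 63. The ratio of light to heavy was 0.503 to 0.778 in Ctrl Input, 0.322 to 0.361 in IR Input, 1.27 to 2.62 in Ctrl IP and 1.73 to 10.4 in IR IP. It was higher in every IP than in every Input, which is given with no test. Much of the heavy-strand sum was *mt-Tt*, with 111 to 129 counts in Ctrl Input and 124 to 174 in IR Input. In the IPs *mt-Tt* had 5 to 13 counts in Ctrl and 0 to 20 in IR. The light-strand *mt-Ty* fell as well, from 30 to 34 counts in Ctrl Input to 0 in Ctrl IP. The part of *mt-Tt* in the ratio was not tested in either condition, and the ratio is not read as a difference between the strands as a whole.

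The nuclear genes that encode the other subunits of complexes I, III, IV and V were compared with the mitochondrial mRNAs, since the complexes need both. Of 71 tested nuclear subunit genes 70 were called lower in the IP in Ctrl and 70 in IR, beside 34.6% and 30.5% of all genes, with a median log2 fold change of -1.90 in Ctrl and -2.06 in IR. The 13 mitochondrial mRNAs had medians of -2.03 and -1.52. By complex, the nuclear medians in Ctrl were -1.72 for complex I, -1.97 for complex III, -2.33 for complex IV and -1.76 for complex V. The mitochondrial complex I mRNAs had a median of -1.04 in Ctrl and the complex IV mRNAs of -2.90. Of the bases of the complex IV mRNAs 74.9% to 100% also occur in nuclear transcripts, and the part of this in the medians was not tested.

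With IR the Input level of the nuclear subunits moved as that of most mitochondrial mRNAs, with 56 of 71 called higher and 4 lower (21.0% and 23.9% of all genes) and a median of 0.24, beside 0.28 for the mitochondrial mRNAs. In 1 fit of all 12 libraries 33 were called higher and 0 lower. Their change of binding was called lower in 22 of 71 and higher in none (13.9% and 6.28% of all genes), with a median of -0.29, and -0.28 for the mitochondrial mRNAs. The count of lower calls was 10 to 14 with a replicate left out, and with library size only 1 was lower and 6 were higher, so that its direction depended on the scaling. In the IP 4 were called higher with IR and 1 lower (6.12% and 9.85% of all genes), and 15 and 0 with library size only.

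Summed over counted reads, mitochondrial mRNAs and nuclear subunit mRNAs were about equal in the Inputs, with a ratio of 1.02 to 1.04 in Ctrl and 0.986 to 0.994 in IR. Reads that align equally well to nuclear copies are missing from the mitochondrial sum, so the ratio does not show equal levels of RNA. In the IPs the ratio was 1.86 to 1.93 in Ctrl and 1.54 to 1.73 in IR. The log2 difference of IP over Input was 0.88 in Ctrl and 0.74 in IR. *mt-Nd1* holds a large part of the mitochondrial sum, and with the median log2 CPM over genes in place of sums the difference was -0.66 in Ctrl and -0.29 in IR, the opposite direction.

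The nuclear genes for the machinery that transcribes mitochondrial DNA and processes, modifies, stabilises and translates its RNA were a list of 73 symbols, of which 70 were found and tested. In the IP 21 were called higher and 32 lower in Ctrl (34.1% and 34.6% of all genes), and 10 higher and 32 lower in IR (32.1% and 30.5%), where the lower calls were 20 without replicate 3. *Twnk*, the mitochondrial DNA helicase, was at a mean of 12.01 CPM in Ctrl Input (SD 0.59, n = 3) and 75.1 CPM in Ctrl IP (SD 4.5) (log2 fold change 2.72, SE 0.081, edgeR adjusted p = 4.74e-15). *Mterf1a*, a transcription termination factor, had a log2 fold change of 2.64 (SE 0.139). *Slirp*, which with *Lrpprc* stabilises mitochondrial mRNAs, was lower in the IP, at -2.56 (SE 0.210) in Ctrl and -2.48 (SE 0.232) in IR, and so was *Hsd17b10*, a subunit of mitochondrial RNase P, at -2.23 (SE 0.222) in IR.

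All 11 genes of the stability and decay group had a log2 fold change under 0 in Ctrl, of which 8 were called lower, beside 34.6% of all genes. Of 22 genes for rRNA and tRNA modification 9 were called higher and 10 lower, beside 34.1% and 34.6% of all genes. The difference between these groups was not tested.

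The change of binding of these nuclear genes was called higher in 1 and lower in 16 of 70 (6.28% and 13.9% of all genes). With a replicate left out 6 to 9 were lower, and with library size only 7 were higher and 1 lower, the opposite direction. *Mrm3*, a methyltransferase of the 16S rRNA, fell by 1.19 on the log2 scale (log2 difference -1.19, SE 0.269, edgeR adjusted p = 0.00291). Its level was 25.7 ± 1.8 CPM (SD, n = 3) in Ctrl IP and 9.82 ± 1.9 CPM in IR IP, with Inputs at 7.02 ± 1.4 and 6.15 ± 1.4 CPM. *Fastkd5*, which takes part in processing of precursors without tRNA punctuation, had -1.07 (SE 0.331) and *Mterf1a* -0.87 (SE 0.222).

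In the Input 7 of the 70 were called higher with IR and 27 lower (21.0% and 23.9% of all genes). These were 2 to 7 and 17 to 24 with a replicate left out, and 3 and 6 in 1 fit of all 12 libraries. Among those lower were *Nsun2*, an RNA methyltransferase with tRNA targets, at -0.74 (SE 0.045), *Trmt61b*, which methylates mitochondrial rRNA and tRNA, at -0.69 (SE 0.174), and *Lrpprc* at -0.69 (SE 0.070). In the IP 14 were lower (9.85% of all genes), 6 to 9 with a replicate left out and 6 with library size only. The most reduced were *Mrm3* (-1.38, SE 0.175), *Fastkd5* (-1.05, SE 0.281) and *Mgme1*, a mitochondrial exonuclease (-0.79, SE 0.154). These are levels of the nuclear mRNAs, and no protein or enzyme activity was measured.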

How the data were processed

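The authors deposited 1 table of raw counts per gene for each of the 12 libraries. Per the labels and methods, reads were trimmed with Trimmomatic 0.39, aligned to mm10 with HISAT (strand setting RF) using the GENCODE M19 annotation, and counted with HTSeq, whose strand option is not given in the sources used here. Reads that fell on no gene, on several genes or on several places were left out of library sizes, and their shares are given with the results. Gene names, classes, coordinates and sequences came from GENCODE M21 (mm10), which matched 53229 of 54446 genes with version and 54409 with or without, the 37 mitochondrial genes among them.

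Genes that reached 10 counts in 3 or more of the libraries compared were scaled by TMM and tested with edgeR 4.0.16 (quasi-likelihood, R 4.3.3), and adjusted over all genes tested after Benjamini and Hochberg, with calls at 0.05. The SE was taken as the absolute log2 fold change over the root of the F statistic. Each comparison used the libraries of its 2 groups, and the change of binding all 12. Shares and ratios were compared by exact two-sided permutation tests (SciPy 1.17.1, Python 3.11.15), 35 in all. Those of IP against Input did not use the pairing of the numbers. With the numbers paired, exact sign flips gave p = 0.25 for IP over Input in the mRNA, rRNA and tRNA shares, in Ctrl and in IR. GGACT and 50-base stretches were searched in the annotated transcripts, not in the genome. Members were all described, with the rule that named tRNAs are the 4 with the highest mean count and any called in the change of binding, and, of the nuclear machinery, the 3 with the largest called change per comparison and a mean of at least 100 counts. The rule for the members uses no measured value, but this set of genes and the lists were taken up with earlier results of these data known, and the list of nuclear ribosomal RNA annotations after seeing these values.

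Per the methods, Input and IP are portions of 1 lysate. Libraries of one number were therefore taken as a pair, which rests on the numbering, while Ctrl and IR libraries come from different mice. Deviations from the group means correlated by a mean of -0.00114 (Ctrl) and -0.00561 (IR) between IP and Input of one number. Between IR and Ctrl of one number the mean was 0.0169 (Input) and 0.0104 (IP), so the correlations do not show the pairing. Replicates differed by more than sampling noise, so none was merged. edgeR was also run on simulated counts with 200 changed genes per comparison. Of the 2-fold changes it recovered 99% for IP in Ctrl, 98% for IP in IR and 64% for the change of binding. For IR against Ctrl it recovered 97% in the Input and 96% in the IP. It recovered 100% of the 4-fold changes in each, with 3.88% to 5.75% false calls. In the libraries themselves 68.7% (Ctrl) and 62.6% (IR) of the tested genes were called between IP and Input. The simulation used the same dispersion in every library and changed no gene with few counts. Between real replicates the mean chi-square per gene was 17.2 to 21.5 in IR IP and 3.59 to 6.27 in the Inputs. Recovery with so large a share of changed genes, or at the noise of the IPs, was not tested. Alternatives were DESeq2 1.42.0, DESeq2 size factors, library size only, scaling on nuclear genes, no filter, at least 10 counts in every library, all 12 libraries in 1 fit, a replicate block, each replicate left out and other denominators for the shares.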

Additional observations from a re-analysis of the deposited data

Results flagged for a closer look

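The change of binding, tested as the difference between conditions in the log2 ratio of IP over Input (IR minus Ctrl), passed the threshold of the quasi-likelihood test in edgeR, adjusted after Benjamini and Hochberg, in 9 of the mitochondrial rRNAs and mRNAs. It was 3.68 for *mt-Rnr1* and 4.14 for *mt-Rnr2*, with no overlap between the per-pool ratios of the conditions. *mt-Nd6* (1.36) and *mt-Co1* (0.32) differed in the same direction. The other 5 differed the opposite way: *mt-Nd2* (-0.66), *mt-Nd1* (-0.58), *mt-Nd4* (-0.45), *mt-Cytb* (-0.31) and *mt-Nd5* (-0.28).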

How the results depend on the processing

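The rRNA results kept their direction and their call under every alternative run, with ranges of -5.61 to -5.32 (*mt-Rnr1*) and -6.57 to -6.34 (*mt-Rnr2*) for IP over Input in Ctrl and of 3.66 to 3.99 and 4.12 to 4.45 for the change of binding. Several mRNA calls were lost, as given beside each in the results. Unless a sentence says otherwise the cause was not tested.

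With uniquely aligned reads as denominator, the log2 differences of the mRNA share were -1.24 (IP over Input in Ctrl), -1.63 (in IR), -0.38 (change of binding), 0.21 (Input, IR over Ctrl) and -0.17 (IP, IR over Ctrl), those of the rRNA share -6.56, -2.61 and 3.95 for the first 3 and 2.101 in the IP, and that of the tRNA share in IR -1.35. With protein-coding counts they were -0.94 (Ctrl), 0.00128 (change of binding) and 0.0899 (Input) for mRNA and -1.92 (IR), 4.33 (change of binding) and -1.97 (Input) for rRNA. For the ratio of mitochondrial to nuclear subunit mRNAs, the median of log2 CPM gave -0.66, -0.29, 0.37, 0.14 and 0.51 in the order of the 5 comparisons, and nuclear protein-coding counts as denominator -0.95, -0.94, 0.000881, 0.0907 and 0.0916.

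With library size only in place of TMM, *mt-Nd1* (-0.11) and *mt-Nd5* (-0.15) turned direction in Ctrl IP over Input, as did *mt-Nd5* in the change of binding (0.032), and *mt-Nd1* did so with no filter (-0.037). The 1 mRNA called higher in Ctrl IP became 0 with library size only, no filter, all 12 libraries or the replicate block. With library size only the change of binding was called higher in 2843 genes and lower in 890 (76.2% of calls higher, against 31.1%), with 2 mRNAs lower, and IR over Ctrl in the IP higher in 2638 and lower in 839 (75.9% against 38.3%), with 4 mRNAs higher and 0 lower. With at least 10 counts in every library 42.6% of the calls in the change of binding were higher. With no filter 1 mRNA was called higher in the IP. In 1 fit of all 12 libraries 2316 genes were called higher with IR and 1771 lower in the Input, and 2121 and 2920 in the IP.

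Leaving out each replicate gave -0.94 to -0.90 (mRNA share, Ctrl), -0.13 to -0.010 (its change of binding), -2.18 to -2.01 (*mt-Nd6* to *mt-Nd5*, Ctrl), and 0.85 to 0.89 (Ctrl), -0.18 to -0.050 (change of binding) and -0.22 to -0.11 (IP) for mitochondrial to nuclear subunit mRNAs. It gave 0 to 1 mRNA higher in Ctrl IP, and 3979 to 4153 genes higher in IR IP. In the change of binding it gave 838 to 1012 genes higher, 1786 to 2045 lower and 3 to 5 mRNAs lower. For IR over Ctrl in the IP it gave 564 to 748 genes higher and 1097 to 1348 lower, with 0 to 1 mRNA higher and 1 to 2 lower.

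With the replicate block that pairs IP and Input, *mt-Nd1* (0.08, adjusted p = 0.0728) and *mt-Nd4l* (-1.29, adjusted p = 0.0580) were not called in Ctrl, and for IR over Ctrl, whose numbers pair no mice, *mt-Nd5* (-0.05, adjusted p = 0.0380) was called lower in the Input. The block changed no other call of a mitochondrial rRNA or mRNA. Counts of at most 174 limit the tRNAs.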
